A study of Mus musculus with 11 samples.

Results

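The cytokine and innate receptor families of the mouse lumbar spinal cord are described here across 3 genotype groups. They were taken as the measured genes whose symbol begins with Ccl, Ccr, Cxcl, Cxcr, Il or Tlr followed by a digit, or with Tnf. This gave 182 of the 20888 rows of the deposited expression table. They comprised 36 chemokine ligands, 17 chemokine receptors, 33 interleukins or interleukin antagonists and 41 interleukin receptors. There were also 13 tumor necrosis factor (TNF) ligands, 20 TNF receptors, 8 genes named as TNF-induced proteins and 12 Toll-like receptors. The remaining pair, Il4i1 and Il1bos, matched by name only and are an amino acid oxidase and an antisense RNA.

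RNA sequencing was done on C57BL/6 mice aged 10 months. The study models CMT2A, the axonal neuropathy that follows from dominant mutations of mitofusin 2, and asks whether more mitofusin restores the balance. Mitofusins join the outer membranes of mitochondria. The groups were nontransgenic controls (nTg, 3 libraries), mice carrying mutant MFN2 (MFN2-R94Q, 3 libraries) and mice carrying both mutant MFN2 and MFN1 (MFN2-R94Q:MFN1, 5 libraries). The labels name no sex, batch, litter or pairing, and the promoter, species and line of each transgene are not named in any source used here. Each library was taken as 1 animal because the design counts mice, and a replicate number only names a library.

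Chemokines are small secreted proteins that draw leukocytes along a gradient through receptors with several membrane passes, and in the spinal cord microglia and astrocytes are their main sources. Many interleukins act on paired receptor chains that feed the JAK-STAT pathway, whereas TNF ligands are trimers whose receptors feed NF-κB or cell death pathways. Toll-like receptors recognise microbial or self nucleic acids, lipids and proteins and signal to NF-κB and interferon genes, most through MyD88 and Tlr3 through TRIF.

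The libraries held 30.7 to 72.0 M reads each, as recovered from the steps between low values. The first principal component of all tested genes (39.6% of the variance) put MFN2-R94Q replicate 2 at 27, the other MFN2-R94Q libraries at 6.2 and 8.05, and all remaining libraries between -8.23 and -2.48. Results that rest on this library are therefore given with and without it. The summed level of 20 microglia markers was 334 to 355 RPKM in nTg, 349 to 387 in MFN2-R94Q and 490 to 556 in MFN2-R94Q:MFN1, and did not overlap between the last group and the others. In bulk tissue, fewer cells of a type and less RNA per cell cannot be told apart.

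Most members were present at very low levels. A gene was tested when it reached 0.5 RPKM (reads scaled to transcript length and to the depth of the library) in at least 3 libraries, and 81 of the 182 members did; the other 101 were described by level only. The tested members were 14 of 36 chemokine ligands, 3 of 17 chemokine receptors, 9 of 33 interleukins, 21 of 41 interleukin receptors, 6 of 13 TNF ligands, 14 of 20 TNF receptors, all 8 TNF-induced genes and 6 of 12 Toll-like receptors. Only 10 members averaged above 10 RPKM over the 11 libraries. The highest was Il33, an alarmin stored in nuclei, at 59.3 RPKM. Tnfrsf21, the death receptor DR6, averaged 33.0 RPKM, the chemokine Cxcl14 averaged 25.8 RPKM and Il6st, the gp130 chain shared by the IL-6 family, averaged 24.8 RPKM. These levels are per length and so can be set side by side.

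**Figure D1:**
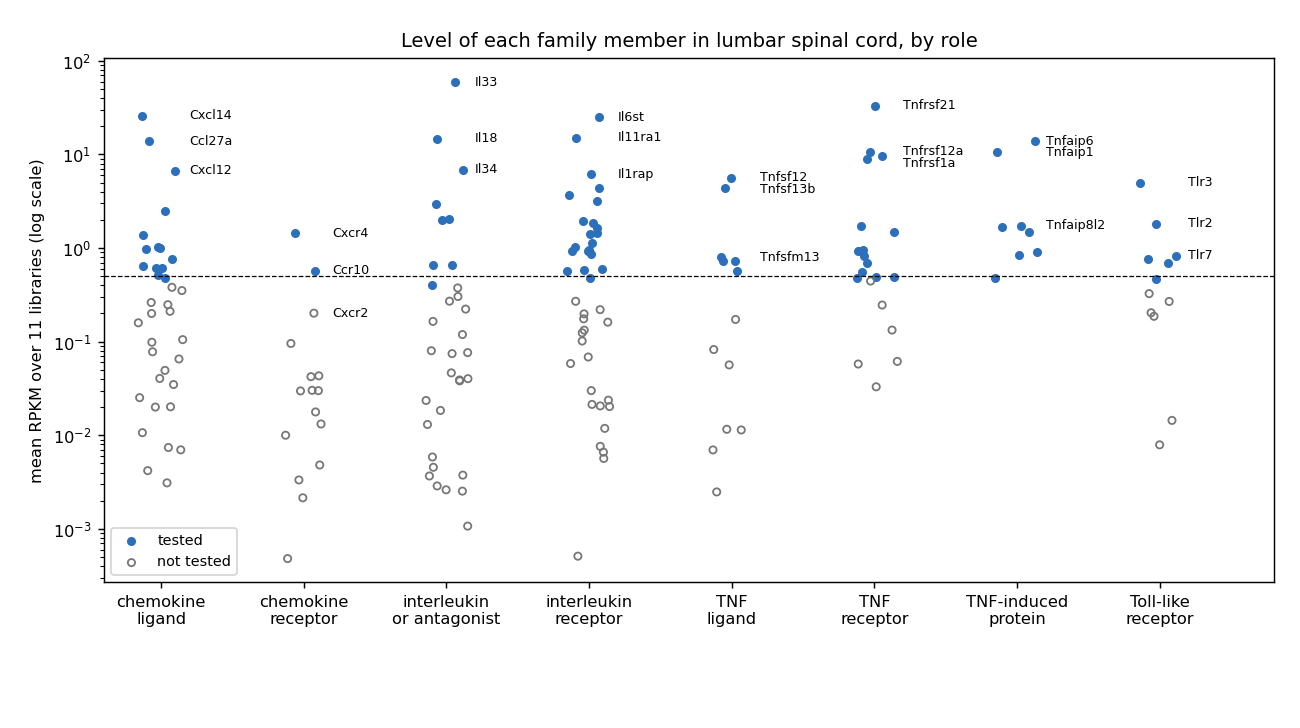
Mean RPKM over 11 libraries (y axis, log scale) of each member by its role (x axis); filled points were tested, open points were not, and the dashed line marks 0.5 RPKM. Il33 is the highest point at 59.3 RPKM, and most chemokine receptors lie under the line; Il4i1, Il1bos and 1 other member are not drawn.

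The members were compared with limma on log2(RPKM + 0.5) in 1 fit of all tested genes, and a member was called higher or lower when its adjusted p was under 0.05. Fold changes are on this scale and understate the change of low members. Any 2 of the 3 comparisons share a group of libraries, so their values are set side by side and not related to each other. A member was called in at least 1 comparison in 27 cases and in none in 54. The matching share of all genes was not counted, so these numbers are not read as a result about the members.

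In MFN2-R94Q against nTg, 9 members were higher and 4 lower. Those 13 calls, 16% of the 81 tested members, stood beside 17.9% of all genes called, with 7.5% of all genes higher and 10.4% lower, so the number of called members was close to the background. Members higher in MFN2-R94Q were Ccl4, Ccl17, Il6ra, Il1r1, Il12rb1, Tnfrsf1a, Tnfrsf18, Tlr7 and Tlr9, and those lower were Ccl27a, Cxcl12, Tnfsf12 and Tnfaip2. The median log2 fold change was 0.01 over the tested members and 0.00 over all genes (0.00948 and -0.00241). The groups did not overlap for 31 members (38.3%), beside 35.7% of all genes.

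In MFN2-R94Q:MFN1 against MFN2-R94Q, 19 members were higher and 2 lower (25.9% of those tested), beside 12.9% of all genes called in either direction, 9.55% higher and 3.33% lower. The members higher with MFN1 included 7 chemokine ligands, 2 interleukins, 3 interleukin receptors, 2 TNF ligands, 2 TNF receptors, 1 TNF-induced gene and 1 Toll-like receptor. The median log2 fold change was 0.06 over the tested members and 0.01 over all genes. The count depended on the libraries in the fit. Without MFN2-R94Q replicate 2, 6 members were higher and 0 lower, 7.41% of those tested beside 6.16% of all genes. Without MFN2-R94Q:MFN1 replicate 2, 10 were higher (12.5% of the members tested, beside 5.95% of all genes), and without replicate 4 of that group 11 (13.8% beside 7.45%). Of the members tested on recovered reads, 11% were called, beside 9.7% of all genes. Under quantile normalization the split was 11 higher and 4 lower. The 11 were 13.6% of the members tested, beside 7% of all genes higher and 5.81% lower. Of the 19 higher members, Ccl5 and Il1a had passed the filter on low values through the MFN2-R94Q:MFN1 libraries alone, and 19 of the 21 calls were left without them. The groups did not overlap for 22 members (27.2%), beside 20.1% of all genes. Values were higher in MFN2-R94Q:MFN1 for 21 of these and lower for 1, beside 13.1% and 7.05% of all genes. The tested members include 3 that passed the filter through 1 group only: Ccl5, Il1a and 1 Toll-like receptor. The counts without overlap were not repeated with such genes removed, so they are not read as a result about the members.

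In MFN2-R94Q:MFN1 against nTg, 8 members were higher and 0 lower (9.88% of those tested), beside 2.31% of all genes called, 2.09% higher and 0.223% lower. The 8 were Ccl3, Ccl4, Ccl5, Ccl6, Cxcl16, Tlr2, Tlr9 and Tnfrsf1a. Leaving out Ccl5, which passed the filter only through this group, left 7. The median log2 fold change was 0.09 over the tested members and 0.01 over all genes. An unadjusted limma p under 0.05 was found for 24 of the 81 tested members, beside 2226 of all 14347 tested genes. The groups did not overlap for 22 members (27.2%), beside 14.1% of all genes. Of these, 20 had higher and 2 lower values in MFN2-R94Q:MFN1, beside 9.03% and 5.05% of all genes. Here too the counts without overlap include members that passed the filter only through MFN2-R94Q:MFN1, and they are not read as a result. Without nTg replicate 1, 5 members were called (6.17%), beside 1.32% of all genes, and without MFN2-R94Q replicate 2, 10 were called (12.3%), beside 4.11%.

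**Figure D2:**
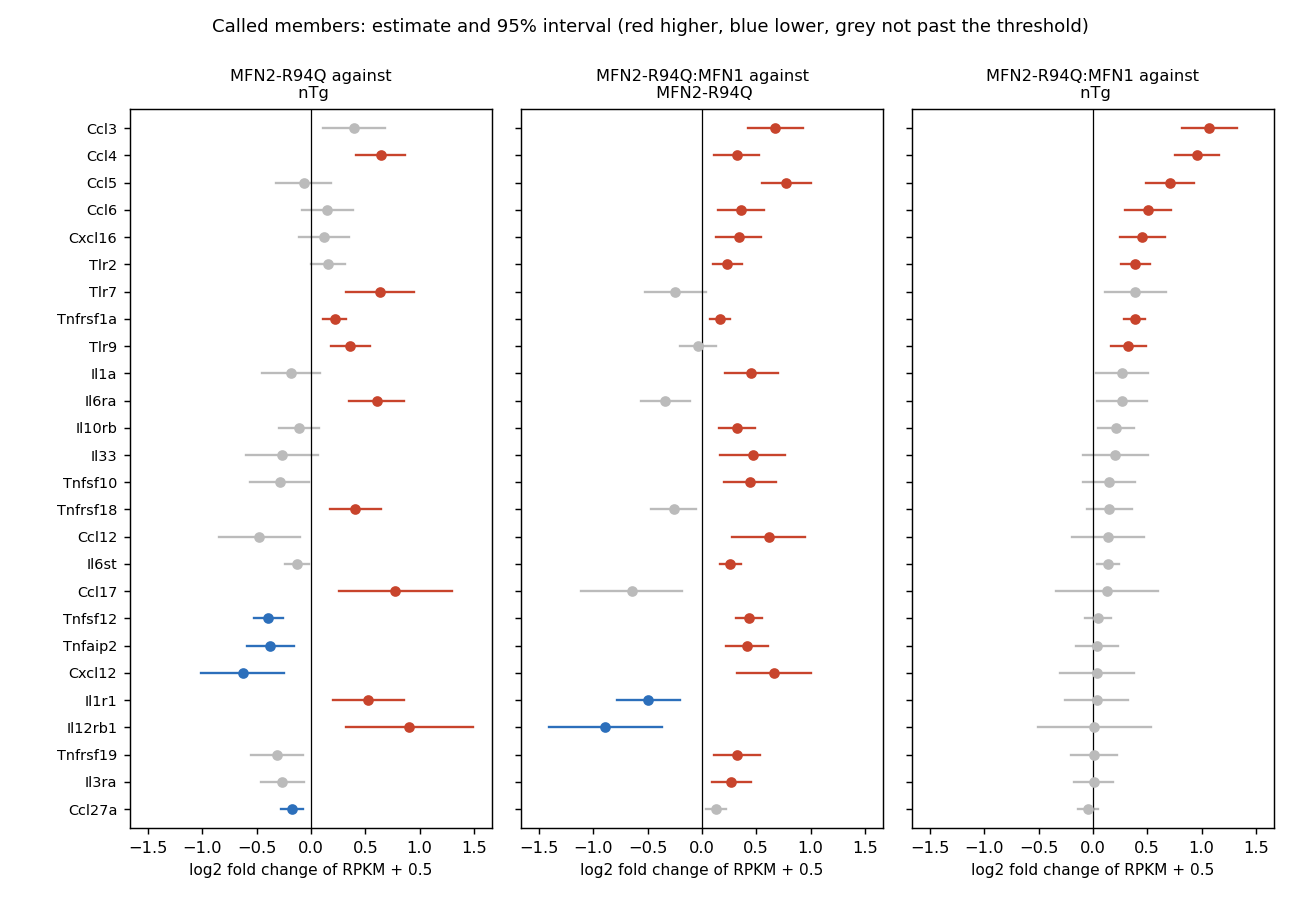
Log2 fold change of RPKM + 0.5 with its 95% interval (x axis) for members called in at least 1 comparison (y axis), in the 3 comparisons; red marks called higher, blue called lower and grey not called. In the right panel the highest estimates are Ccl3 (1.07) and Ccl4 (0.96), and 0 members are called lower.

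Among the chemokine ligands, the CC chemokines Ccl3, Ccl4 and Ccl5 had the largest differences from nTg in MFN2-R94Q:MFN1. Ccl5 passed the filter on low values only through that group. These chemokines attract monocytes and T cells. Their genes lie with Ccl6 and Ccl9 in a cluster on chromosome 11 (GRCm38.p6, RefSeq): Ccl5 at 83525778 to 83530518, Ccl6 at 83587886 to 83593087, Ccl3 at 83647843 to 83649378 and Ccl4 at 83648624 to 83664683. The annotated Ccl3 and Ccl4 models overlap. Whether the authors counted reads by strand is not stated in any source used here, and reads in the overlap could be assigned to either gene. The promoter table used here held 5 of the 8 members that were higher than in nTg. The window of Ccl3 lies inside the annotated span of Ccl4. The bases just before the annotated starts of Ccl3, Ccl6 and Tlr9 are shown because their windows, of those 5, held no GENCODE M21 exon. They are printed 5′ to 3′ on the gene's strand, 250 bases each, from RefSeq on GRCm38.p6. Capitals mark a match to GGAAGT, the core bound by ETS factors such as PU.1 of myeloid cells (read here as ACTTCC on the printed strand), or to TGANTCA, the AP-1 motif.
Ccl3, chr11:83649379-83649628, minus strand: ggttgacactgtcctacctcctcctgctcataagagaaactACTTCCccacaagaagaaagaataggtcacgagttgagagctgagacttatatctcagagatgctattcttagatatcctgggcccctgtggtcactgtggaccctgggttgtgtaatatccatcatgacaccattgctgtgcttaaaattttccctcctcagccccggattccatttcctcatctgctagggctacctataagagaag
Ccl6, chr11:83593088-83593337, minus strand: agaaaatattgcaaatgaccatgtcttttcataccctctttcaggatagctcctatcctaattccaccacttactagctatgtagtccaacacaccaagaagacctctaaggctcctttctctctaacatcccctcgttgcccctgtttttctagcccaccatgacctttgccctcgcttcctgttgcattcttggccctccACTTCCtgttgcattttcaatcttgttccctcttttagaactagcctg
Tlr9, chr9:106222348-106222597, plus strand: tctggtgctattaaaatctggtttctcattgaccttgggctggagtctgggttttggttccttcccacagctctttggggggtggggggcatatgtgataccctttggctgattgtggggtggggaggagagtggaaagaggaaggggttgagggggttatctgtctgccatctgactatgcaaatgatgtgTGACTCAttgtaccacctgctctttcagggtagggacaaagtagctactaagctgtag

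The GGAAGT match lay 209 to 204 bases before the start of Ccl3 and 48 to 43 bases before that of Ccl6. The AP-1 match lay 58 to 52 bases before the start of Tlr9. Both strands were searched in the 250 bases before 32851 annotated mouse starts. GGAAGT occurred in 19.7% of all windows and in 27.2% of the 169 windows of members. TGANTCA occurred in 6.7% of all windows and in 16.0% of those of members. The NF-κB consensus occurred in 7.3% and 14.2%, and the interferon-stimulated response element, searched as 2 copies of GAAA that are 2 bases apart, in 3.0% and 6.5%. TATAAA was found in 12.4% and 17.8%. In the 76 windows of tested members the shares were 19.7% for GGAAGT, 15.8% for TGANTCA and 11.8% for the NF-κB consensus. They were 7.9% for the interferon-stimulated response element and 11.8% for TATAAA. For GGAAGT and TATAAA these shares did not exceed those of all windows. Of the 24 windows of members called in at least 1 comparison, 7 held GGAAGT, 3 held TGANTCA, 3 held the NF-κB consensus and 0 held the interferon-stimulated response element. These matches describe the letters only, and the base composition of the windows was not compared.

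Ccl3 was at 0.375, 0.523 and 0.365 RPKM in nTg, at 1.03, 0.543 and 0.603 RPKM in MFN2-R94Q and at 1.31, 1.48, 1.49, 1.62 and 1.27 RPKM in MFN2-R94Q:MFN1. Every MFN2-R94Q:MFN1 library lay above every other library. The fitted level of Ccl3 was 2.10-fold that of nTg (log2 1.07, SE 0.12, adjusted p = 2e-04) and 1.60-fold that of MFN2-R94Q (adjusted p = 0.0046). In MFN2-R94Q against nTg it was 1.32-fold with an interval of 1.08 to 1.60, and the adjusted p of 0.054 missed the threshold. Both calls held in all 11 fits that left out a library.

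Ccl4 was at 0.336, 0.243 and 0.306 RPKM in nTg, at 0.840, 0.687 and 0.693 RPKM in MFN2-R94Q and at 1.05, 0.820, 1.12, 1.28 and 0.981 RPKM in MFN2-R94Q:MFN1. Both transgenic groups lay above nTg without overlap, while they overlapped each other. It was 1.56-fold higher in MFN2-R94Q than in nTg (log2 0.64, SE 0.11, adjusted p = 0.0033) and 1.94-fold higher in MFN2-R94Q:MFN1 than in nTg (log2 0.96, adjusted p = 8.7e-05). These calls held in every fit that left out a library. The third comparison, 1.25-fold higher in MFN2-R94Q:MFN1 than in MFN2-R94Q (adjusted p = 0.044), did not. It was lost without nTg replicate 1 or 3, MFN2-R94Q replicate 2 or 3, or MFN2-R94Q:MFN1 replicate 1, 3, 4 or 5 (adjusted p up to 0.20 over the alternatives; 0.144 without MFN2-R94Q replicate 2).

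Ccl5 followed another order. It was at 0.244, 0.216 and 0.326 RPKM in nTg, at 0.184, 0.180 and 0.323 RPKM in MFN2-R94Q and at 0.912, 0.627, 0.723, 0.617 and 0.865 RPKM in MFN2-R94Q:MFN1. The nTg and MFN2-R94Q libraries overlapped, and all 5 MFN2-R94Q:MFN1 libraries were above both. Ccl5 passed the filter on low values only through MFN2-R94Q:MFN1, where it was high, so its limma test on RPKM carries little weight. The fitted fold was 1.64 against nTg (log2 0.71, adjusted p = 0.0021) and 1.71 against MFN2-R94Q (log2 0.78, adjusted p = 0.0013). These calls held in every fit that left out a library. The reads behind these values were 7, 5 and 6 in nTg, 3, 4 and 9 in MFN2-R94Q and 21, 24, 14, 12 and 22 in MFN2-R94Q:MFN1. A test of whole reads, whose filter was not tied to a group, gave 2.73-fold (adjusted p = 0.0237) and 2.98-fold (adjusted p = 0.0102).

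Ccl6, a CC chemokine of myeloid cells, was at 1.02, 1.31 and 0.803 RPKM in nTg, 1.18, 1.18 and 1.23 RPKM in MFN2-R94Q and 1.67, 1.65, 1.57, 2.00 and 1.53 RPKM in MFN2-R94Q:MFN1. Only the last group stood apart. It was 1.42-fold higher than in nTg (adjusted p = 0.014) and 1.28-fold higher than in MFN2-R94Q (adjusted p = 0.031). The first call was lost without nTg replicate 1 or 3 (adjusted p up to 0.0691 over the alternatives). The second was lost without any single MFN2-R94Q library or without MFN2-R94Q:MFN1 replicate 1, 2 or 4 (adjusted p up to 0.0879). Cxcl16, a membrane-bound chemokine that also takes up oxidised lipid, was at 0.633, 0.940 and 0.773 RPKM in nTg, 0.870, 0.861 and 0.922 RPKM in MFN2-R94Q and 1.02, 1.32, 1.41, 1.43 and 1.10 RPKM in MFN2-R94Q:MFN1. All libraries of the last group were again the highest. The fold was 1.37 against nTg (adjusted p = 0.026) and 1.26 against MFN2-R94Q (adjusted p = 0.039). Its call against nTg was lost without nTg replicate 1 or 3 or MFN2-R94Q:MFN1 replicate 2, 3 or 4 (adjusted p up to 0.146). That against MFN2-R94Q was lost without nTg replicate 3, any MFN2-R94Q library or MFN2-R94Q:MFN1 replicate 2, 3 or 4 (adjusted p up to 0.108).

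**Figure D3:**
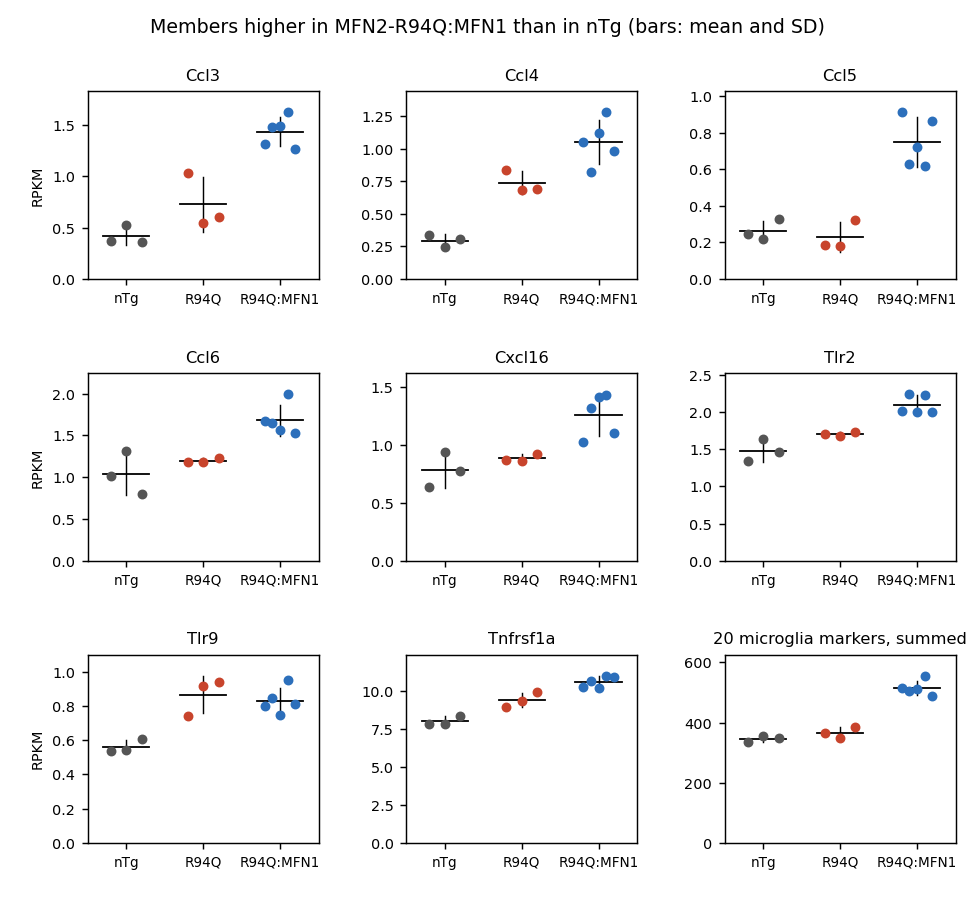
RPKM (y axis) per library in nTg (3), MFN2-R94Q (3) and MFN2-R94Q:MFN1 (5), for the 8 members higher in MFN2-R94Q:MFN1 than in nTg and for the sum of 20 microglia markers; points are libraries, the horizontal bar is the mean and the vertical bar the SD. For Ccl3, Ccl5, Ccl6, Cxcl16, Tlr2, Tnfrsf1a and the microglia sum all blue points lie above every other point, while Ccl4 and Tlr9 overlap between the transgenic groups.

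The summed microglia markers were also higher in MFN2-R94Q:MFN1 than in both other groups. Of the 8 members, Ccl4, Tnfrsf1a and Tlr9 were already called higher in MFN2-R94Q than in nTg. Of the 20 markers, all tested, 11 were higher and 0 lower in MFN2-R94Q:MFN1 than in nTg, with a median log2 fold change of 0.44, and 16 were higher without MFN2-R94Q replicate 2. Against MFN2-R94Q, 19 were higher (17 without that library) with a median of 0.45. In MFN2-R94Q against nTg, 2 were higher and 2 lower (2 and 0 without it), with a median of 0.00. The log2 fold changes of the 8 members against nTg were 1.07 for Ccl3, 0.96 for Ccl4, 0.71 for Ccl5, 0.51 for Ccl6, 0.45 for Cxcl16, 0.39 for Tlr2, 0.38 for Tnfrsf1a and 0.33 for Tlr9. Because the added 0.5 RPKM shrinks low members most, these values are not ranked against the marker median. Markers of astrocytes, another source of chemokines, summed to 1120 to 1160 RPKM in nTg and MFN2-R94Q and to 1280 to 1350 RPKM in MFN2-R94Q:MFN1. Of these 9 markers, 1 was called higher there than in nTg, Gfap at 1.70-fold. The other markers ran from 0.906-fold for Gjb6 to 1.32-fold for Sox9. The part of microglia and astrocytes in the differences of the 8 members was not tested. Markers of T and natural killer cells summed to 0.511 to 0.774 RPKM in nTg and MFN2-R94Q and to 0.833 to 1.10 RPKM in MFN2-R94Q:MFN1. Of those 13 markers 0 reached the level for testing, and 9, Cd3e and Cd8a among them, were under 0.1 RPKM in all libraries.

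Another pattern was a lower level in MFN2-R94Q alone. Cxcl12, which holds Cxcr4-bearing cells in place and is made by endothelial and stromal cells, was at 5.43, 9.62 and 7.20 RPKM in nTg, 5.25, 3.31 and 5.24 RPKM in MFN2-R94Q and 6.84, 8.07, 7.23, 6.97 and 8.10 RPKM in MFN2-R94Q:MFN1. The MFN2-R94Q libraries lay under all others, closely so for nTg replicate 1. It was 0.648 times the nTg level (log2 -0.63, SE 0.18, adjusted p = 0.028), and 1.58-fold higher in MFN2-R94Q:MFN1 than in MFN2-R94Q (adjusted p = 0.019). Without MFN2-R94Q replicate 2 these were 0.743 (adjusted p = 0.0915) and 1.38-fold (adjusted p = 0.0736), past the threshold in neither. The first call was also lost without nTg replicate 2 or 3. The sum of 10 endothelial markers was 112 to 120 RPKM in nTg, 99.1 to 110 RPKM in MFN2-R94Q and 110 to 126 RPKM in MFN2-R94Q:MFN1, and its part in the level of Cxcl12 was not tested.

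Ccl12, a monocyte attractant related to Ccl2, was at 0.414, 0.642 and 0.915 RPKM in nTg, 0.365, 0.311 and 0.284 RPKM in MFN2-R94Q and 1.12, 0.596, 0.819, 0.815 and 0.506 RPKM in MFN2-R94Q:MFN1. The mutant libraries were the lowest. It was 1.53-fold higher in MFN2-R94Q:MFN1 than in MFN2-R94Q (adjusted p = 0.023), a call lost without MFN2-R94Q replicate 2 (1.52-fold, adjusted p = 0.0658) or 3, without a filter on low values and in the test of recovered reads (adjusted p = 0.0725). Its 0.72-fold level in MFN2-R94Q against nTg had an adjusted p of 0.073. Ccl27a, an epithelial chemokine with a near-identical copy, was at 14.4, 14.2 and 14.7 RPKM in nTg and 12.8, 12.4 and 13.0 RPKM in MFN2-R94Q, and at 13.2 to 14.9 RPKM in MFN2-R94Q:MFN1. It was lower in MFN2-R94Q than in nTg by a small factor, 0.886 (adjusted p = 0.023), a call lost without any 1 of the nTg libraries or MFN2-R94Q replicate 2 (adjusted p = 0.0598 without the latter). How its reads were divided between the copies is not stated.

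Ccl17, a ligand of Ccr4, was at 0.612, 0.670 and 0.730 RPKM in nTg, 0.952, 2.92 and 1.11 RPKM in MFN2-R94Q and 0.587 to 1.01 RPKM in MFN2-R94Q:MFN1. MFN2-R94Q replicate 2 was far above the rest. Its fitted level in MFN2-R94Q was 1.71-fold that of nTg (adjusted p = 0.042) and 1.31-fold without that library (adjusted p = 0.0633). The call was also lost without any nTg library or without MFN2-R94Q:MFN1 replicate 1, 2, 3 or 5. Cxcl10, an interferon-induced ligand of Cxcr3, ranged from 0.146 to 1.07 RPKM within nTg alone and was called in none. Cxcl14, the highest chemokine, was at 23.1 to 27.9 RPKM over all libraries, with intervals of 0.923 to 1.10 and 0.957 to 1.12 for its fold in MFN2-R94Q and MFN2-R94Q:MFN1 against nTg.

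Of the 17 chemokine receptors, 14 were under the filter. Cxcr4, the Cxcl12 receptor, was 1.55-fold in MFN2-R94Q:MFN1 against nTg with a wide interval of 1.13 to 2.12 (adjusted p = 0.164). Ccr2, the receptor of inflammatory monocytes, did not exceed 0.073 RPKM in any library.

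Among the interleukins, 0 of 9 tested members were called in either comparison with nTg, and Il33 and Il1a were higher in MFN2-R94Q:MFN1 than in MFN2-R94Q. Of all genes, 17.9% and 2.31% were called in MFN2-R94Q and MFN2-R94Q:MFN1 against nTg, and 12.9% between the transgenic groups. Il33 was at 55.3, 62.6 and 54.9 RPKM in nTg, 60.9, 33.4 and 53.4 RPKM in MFN2-R94Q and 63.4, 68.5, 71.0, 66.4 and 62.4 RPKM in MFN2-R94Q:MFN1. The low value came from MFN2-R94Q replicate 2. The fold of Il33 was 1.38 (adjusted p = 0.043) with that library and 1.16 (adjusted p = 0.0679) without it. The call was also lost without any nTg or any MFN2-R94Q:MFN1 library. Il33 is made by oligodendrocytes and astrocytes of the cord, and the sum of 10 oligodendrocyte markers was 3772 RPKM in that library and 3920 to 4674 RPKM in the rest. The part of these cells in its level was not tested.

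Il1a, an IL-1 receptor agonist released by damaged cells and microglia, was at 0.361, 0.481 and 0.216 RPKM in nTg, 0.279, 0.255 and 0.200 RPKM in MFN2-R94Q and 0.550, 0.570, 0.376, 0.644 and 0.479 RPKM in MFN2-R94Q:MFN1. The last group lay above MFN2-R94Q and overlapped nTg. Il1a passed the filter on low values only through MFN2-R94Q:MFN1, where it was high, so its test carries little weight. Its 1.37-fold difference from MFN2-R94Q (adjusted p = 0.020) did not pass without replicate 2 of MFN2-R94Q (1.38-fold, adjusted p = 0.0522) or without its replicate 3. Only 8 of the 11 fits that left out a library tested it. Il18, activated by the inflammasome, was at 13.3 to 15.4 RPKM in all libraries. Its fold was 1.04 in both transgenic groups against nTg, with intervals of 0.964 to 1.12 and 0.975 to 1.12. Il34, a second ligand of the microglial receptor Csf1r, was at 5.96 to 7.67 RPKM and was called in none.

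Of the 21 tested interleukin receptors, 3 were higher in MFN2-R94Q than in nTg, 3 were higher and 2 lower in MFN2-R94Q:MFN1 than in MFN2-R94Q, and 0 were called in MFN2-R94Q:MFN1 against nTg. These counts stand beside 17.9%, 12.9% and 2.31% of all genes called in the same comparisons. Il6ra, the ligand-binding chain for IL-6, was at 1.07, 1.11 and 1.07 RPKM in nTg, 1.82, 2.40 and 1.57 RPKM in MFN2-R94Q and 1.46, 1.50, 1.13, 1.33 and 1.64 RPKM in MFN2-R94Q:MFN1. Every transgenic library was above every nTg library. It was 1.52-fold higher in MFN2-R94Q than in nTg (log2 0.60, SE 0.12, adjusted p = 0.0065), and 1.38-fold without replicate 2 (adjusted p = 0.015). This call held in every fit that left out a library. Il6ra was 1.20-fold in MFN2-R94Q:MFN1 against nTg (interval 1.03 to 1.41, adjusted p = 0.248).

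Il6st, the signal chain that Il6ra pairs with, was at 24.7, 24.4 and 23.7 RPKM in nTg, 23.4, 20.1 and 23.2 RPKM in MFN2-R94Q and 26.8, 26.2, 26.2, 27.9 and 26.5 RPKM in MFN2-R94Q:MFN1. The groups did not overlap, with MFN2-R94Q lowest and MFN2-R94Q:MFN1 highest. It was 1.20-fold higher in MFN2-R94Q:MFN1 than in MFN2-R94Q (log2 0.26, SE 0.05, adjusted p = 0.0049), and this call held in every fit that left out a library (1.14-fold, adjusted p = 0.00616 without MFN2-R94Q replicate 2). Neither comparison of Il6st with nTg passed (adjusted p = 0.105 and 0.175).

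Il12rb1, a chain of the IL-12 and IL-23 receptors, and Il1r1, the signalling receptor of IL-1, were high in some MFN2-R94Q libraries only. Il12rb1 was at 0.689, 0.559 and 0.623 RPKM in nTg, 0.738, 3.23 and 1.50 RPKM in MFN2-R94Q and 0.545 to 0.792 RPKM in MFN2-R94Q:MFN1. MFN2-R94Q replicate 1 lay among the other groups. Its fold was 1.87 in MFN2-R94Q against nTg (adjusted p = 0.036) and 0.540 in MFN2-R94Q:MFN1 against MFN2-R94Q (adjusted p = 0.031). Without replicate 2 these were 1.40 (adjusted p = 0.0679) and 0.720 (adjusted p = 0.0768). The first call was also lost with any nTg library or MFN2-R94Q replicate 3 left out, and the second without MFN2-R94Q replicate 3 or MFN2-R94Q:MFN1 replicate 1, 2, 4 or 5.

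Il1r1 was at 0.852, 0.666 and 0.750 RPKM in nTg, 0.855, 1.84 and 1.37 RPKM in MFN2-R94Q and 0.688 to 0.863 RPKM in MFN2-R94Q:MFN1. It showed the same order of the MFN2-R94Q libraries. The fold was 1.44 (adjusted p = 0.029) and 0.709 (adjusted p = 0.031) in the same comparisons, and 1.27 (adjusted p = 0.0922) and 0.807 (adjusted p = 0.131) without replicate 2. The first call was also lost without replicate 2 or 3 of nTg or replicate 3 of MFN2-R94Q, and the second without MFN2-R94Q replicate 3 or MFN2-R94Q:MFN1 replicate 1, 2 or 5. The 10 neutrophil markers summed to 3.02 RPKM in MFN2-R94Q replicate 2 and to 0.239 to 1.06 RPKM elsewhere. Of these markers 0 reached the level for testing and Elane was at 0 in all libraries. Their part in the values of this library was not tested.

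Il10rb, a chain shared by IL-10 and type III interferon receptors, was at 4.62, 3.27 and 3.73 RPKM in MFN2-R94Q and at 4.70 to 5.09 RPKM in MFN2-R94Q:MFN1. Its 1.25-fold difference (adjusted p = 0.019) was 1.16-fold without MFN2-R94Q replicate 2 (adjusted p = 0.0732). Il3ra was 1.21-fold higher in MFN2-R94Q:MFN1 than in MFN2-R94Q at the edge of the threshold (adjusted p = 0.0497), and the call was lost in 10 of the 11 fits that left out a library. The exception was the fit without MFN2-R94Q replicate 3. Il11ra1, the highest binding chain, had near-identical copies and was at 13.7 to 17.6 RPKM with no call.

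**Figure D4:**
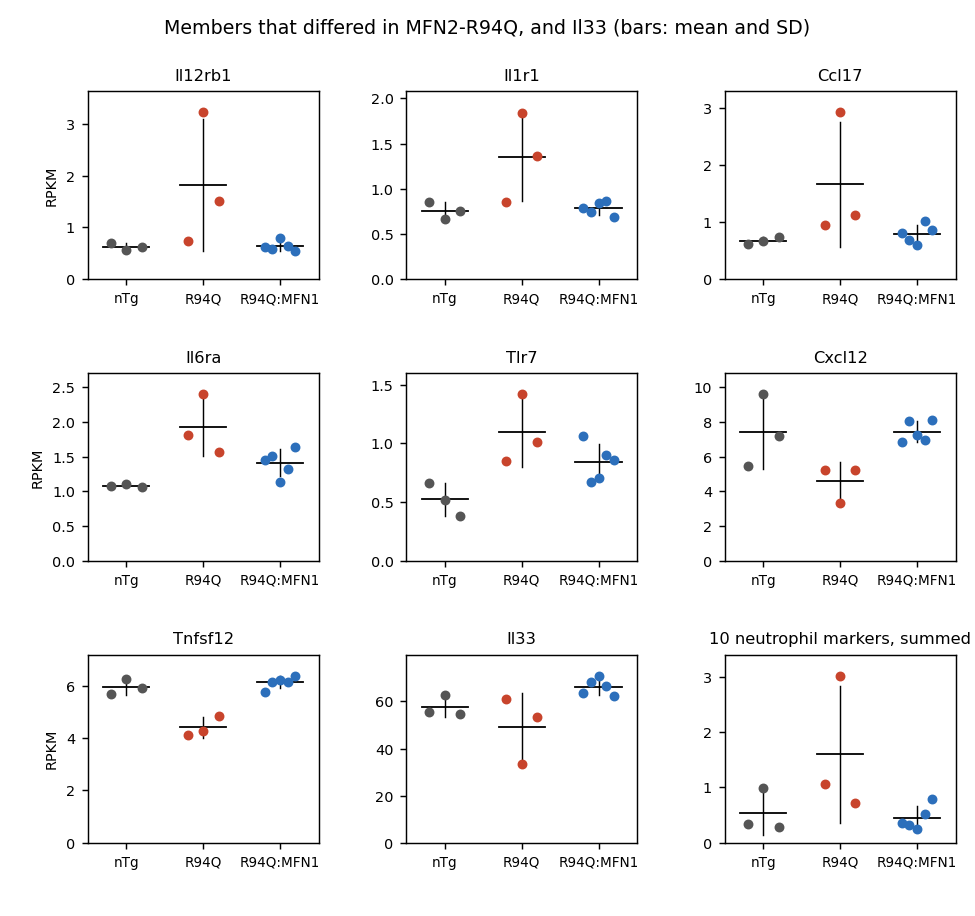
RPKM (y axis) per library in nTg (3), MFN2-R94Q (3) and MFN2-R94Q:MFN1 (5) for 7 members called in MFN2-R94Q against nTg, for Il33 and for the sum of 10 neutrophil markers; points are libraries, with the mean and SD as bars. The extreme red point in Il12rb1 (3.23), Ccl17 (2.92) and the neutrophil sum (3.02), and the low one in Il33 (33.4), are MFN2-R94Q replicate 2, while the 3 red points of Tnfsf12 stand together below the rest.

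Among the TNF ligands, Tnfsf12 was lower in MFN2-R94Q than in both other groups. Tnfsf12 encodes TWEAK, which acts on muscle, glia and endothelium through Tnfrsf12a. It was at 5.66, 6.24 and 5.89 RPKM in nTg, 4.11, 4.26 and 4.86 RPKM in MFN2-R94Q and 5.75, 6.13, 6.23, 6.16 and 6.38 RPKM in MFN2-R94Q:MFN1. The 3 mutant libraries lay under all others, and nTg and MFN2-R94Q:MFN1 overlapped. The fold was 0.762 in MFN2-R94Q against nTg (log2 -0.39, SE 0.06, adjusted p = 0.0031) and 1.35 in MFN2-R94Q:MFN1 against MFN2-R94Q (log2 0.44, SE 0.06, adjusted p = 0.00096). Both calls held in every fit that left out a library. Against nTg, the MFN2-R94Q:MFN1 level was 1.03-fold, with an interval of 0.948 to 1.12.

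The Tnfsf12 model (chromosome 11, 69686240 to 69696098, GRCm38.p6) shares bases with Tnfsfm13, a read-through model at 69682577 to 69696098, which also covers Tnfsf13. The division of reads among them is uncertain. Tnfsfm13 itself was at 0.566 to 1.01 RPKM and was not called. The Tnfsf12 receptor Tnfrsf12a was at 9.13 to 12.6 RPKM and had a fold of 0.923 in MFN2-R94Q against nTg (interval 0.788 to 1.08). Tnfsf10, the death ligand TRAIL, was at 0.666, 0.338 and 0.511 RPKM in MFN2-R94Q and 0.733, 1.07, 0.977, 0.757 and 0.749 RPKM in MFN2-R94Q:MFN1. Its fold between these groups was 1.36 (adjusted p = 0.024) with replicate 2 of MFN2-R94Q and 1.24 (adjusted p = 0.107) without it. The call was also lost without MFN2-R94Q:MFN1 replicate 2. Tnfsf13b, the B cell factor BAFF, was at 3.92 to 4.80 RPKM in all libraries.

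Of the TNF receptors, Tnfrsf1a, the main receptor for soluble TNF, was called in all comparisons. It was at 7.84, 7.82 and 8.35 RPKM in nTg, 8.96, 9.30 and 9.91 RPKM in MFN2-R94Q and 10.24, 10.66, 10.18, 10.99 and 10.90 RPKM in MFN2-R94Q:MFN1. The groups formed 3 separate steps with no overlap. The fold was 1.16 in MFN2-R94Q against nTg (log2 0.22, SE 0.05, adjusted p = 0.012), 1.31 in MFN2-R94Q:MFN1 against nTg (log2 0.38, SE 0.04, adjusted p = 3.2e-04) and 1.12 between the transgenic groups (adjusted p = 0.028). Calls against nTg held in every fit that left out a library, but that of MFN2-R94Q was lost when nTg and MFN2-R94Q were fitted alone (adjusted p = 0.0586). The last was lost without MFN2-R94Q replicate 1 or 2 or MFN2-R94Q:MFN1 replicate 2, 4 or 5 (1.12-fold, adjusted p = 0.0773 without MFN2-R94Q replicate 2). Tnfrsf1b, the second TNF receptor, was at 1.23, 1.29 and 1.43 RPKM in nTg and 1.43 to 1.71 RPKM in MFN2-R94Q:MFN1, with a fold of 1.13 (interval 1.02 to 1.26, adjusted p = 0.223).

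Tnfrsf18, the costimulatory receptor GITR, was at 1.27, 1.57 and 1.46 RPKM in nTg, 2.30, 2.18 and 1.74 RPKM in MFN2-R94Q and 1.47 to 2.04 RPKM in MFN2-R94Q:MFN1. All MFN2-R94Q libraries exceeded nTg. It was 1.33-fold higher in MFN2-R94Q than in nTg (adjusted p = 0.022), a call lost without nTg replicate 1 or MFN2-R94Q replicate 1 or 2 (adjusted p = 0.0611 without replicate 2). Tnfrsf19, the receptor TROY of glial progenitors, was at 8.38, 5.73 and 8.70 RPKM in MFN2-R94Q and 8.93 to 9.89 RPKM in MFN2-R94Q:MFN1. The value of 5.73 RPKM was again replicate 2. Its 1.25-fold difference (adjusted p = 0.047) was 1.11-fold without that library (adjusted p = 0.0782), and the call held only in the fits without MFN2-R94Q replicate 1 or 3. The sum of 6 markers of oligodendrocyte precursors was 80.9 to 91.4 RPKM in nTg, 51.7 to 69.7 RPKM in MFN2-R94Q and 78.2 to 89.3 RPKM in MFN2-R94Q:MFN1, and its part in the level of Tnfrsf19 was not tested. Tnfrsf21 was at 31.6 to 34.8 RPKM and was not called.

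Tnfaip2, induced by TNF in endothelial and myeloid cells, was the 1 TNF-induced gene with a call. It was at 0.814, 1.05 and 1.06 RPKM in nTg, 0.576, 0.661 and 0.667 RPKM in MFN2-R94Q and 0.847, 1.15, 1.13, 0.880 and 1.06 RPKM in MFN2-R94Q:MFN1. The mutant libraries were the lowest, and the other groups overlapped. The fold was 0.772 in MFN2-R94Q against nTg (adjusted p = 0.023) and 1.33 in MFN2-R94Q:MFN1 against MFN2-R94Q (adjusted p = 0.013). The second held in every fit that left out a library, while the first was lost without replicate 2 or 3 of nTg or replicate 1 of MFN2-R94Q (adjusted p up to 0.0838). Tnfaip6, a hyaluronan-binding protein, was at 11.7 to 16.1 RPKM and Tnfaip1 at 10.0 to 11.2 RPKM, with no call for either.

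Of the Toll-like receptors, Tlr7 and Tlr9 were higher in MFN2-R94Q than in nTg, and Tlr2 and Tlr9 were higher in MFN2-R94Q:MFN1 than in nTg. Tlr2, the surface receptor for bacterial lipopeptides, was at 1.33, 1.64 and 1.47 RPKM in nTg, 1.70, 1.68 and 1.73 RPKM in MFN2-R94Q and 2.01, 2.24, 2.00, 2.22 and 2.00 RPKM in MFN2-R94Q:MFN1. The groups did not overlap and stood in that order. Its fold was 1.31 in MFN2-R94Q:MFN1 against nTg (log2 0.39, SE 0.06, adjusted p = 0.0045), which held in every fit that left out a library, and 1.18 against MFN2-R94Q (adjusted p = 0.031). The latter was lost without any MFN2-R94Q library or without MFN2-R94Q:MFN1 replicate 2 or 4 (1.17-fold, adjusted p = 0.0905 without MFN2-R94Q replicate 2). A 30-base stretch ahead of an annotated start of Tlr2 held 2 overlapping matches to the NF-κB consensus, marked in capitals. They lay 173 to 163 bases before that start. The printed stretch lies inside the annotated span of Tlr2 (chromosome 3, 83836272 to 83841824), so it is not sequence upstream of the whole gene. A match to GGAAGT lay 30 to 25 bases before the same start and is not printed.
Tlr2, chr3:83841762-83841791, minus strand, GRCm38.p6: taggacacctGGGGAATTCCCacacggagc

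Tlr7 and Tlr9 are endosomal receptors for single-stranded RNA and unmethylated DNA. Tlr7 was at 0.665, 0.519 and 0.384 RPKM in nTg, 0.853, 1.42 and 1.01 RPKM in MFN2-R94Q and 1.06, 0.670, 0.703, 0.899 and 0.860 RPKM in MFN2-R94Q:MFN1. All transgenic libraries were above nTg, with MFN2-R94Q:MFN1 replicate 2 only just above the highest nTg library. It was 1.55-fold higher in MFN2-R94Q than in nTg (log2 0.63, SE 0.14, adjusted p = 0.012), and 1.41-fold without MFN2-R94Q replicate 2 (adjusted p = 0.0379). The fold of Tlr7 in MFN2-R94Q:MFN1 against nTg was 1.31 (interval 1.08 to 1.59, adjusted p = 0.165).

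Tlr9 was at 0.538, 0.542 and 0.607 RPKM in nTg, 0.742, 0.921 and 0.945 RPKM in MFN2-R94Q and 0.804, 0.848, 0.750, 0.952 and 0.812 RPKM in MFN2-R94Q:MFN1. Both transgenic groups lay above nTg and overlapped each other. The fold was 1.29 in MFN2-R94Q against nTg (adjusted p = 0.013), and 1.25 in MFN2-R94Q:MFN1 against nTg (adjusted p = 0.039). The first held in every fit that left out a library and was lost when nTg and MFN2-R94Q were fitted alone (adjusted p = 0.0565). The latter was lost without any nTg library or without MFN2-R94Q:MFN1 replicate 1, 2, 4 or 5 (adjusted p up to 0.157). Between the transgenic groups the fold was 0.975 (interval 0.871 to 1.09). Tlr3, the receptor for double-stranded RNA and the highest of the family here, was at 4.53 to 5.52 RPKM and was not called. Tlr4, the receptor for endotoxin, was at 0.186 to 0.374 RPKM and was not tested.

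The classical inflammatory cytokines were at the edge of detection. For members whose values are whole multiples of a single read, the number of reads could be estimated, which was so for 124 members. Tnf had 1, 6 and 3 reads in nTg, 6, 8 and 1 in MFN2-R94Q and 2, 10, 3, 1 and 4 in MFN2-R94Q:MFN1. Il1b had 5, 6 and 5 reads in nTg, 5, 9 and 2 in MFN2-R94Q and 5, 11, 10, 9 and 9 in MFN2-R94Q:MFN1, and Il6 had between 0 and 6 reads in every library. The groups overlapped for all of these. Il10, an anti-inflammatory cytokine, was above 0 RPKM in only 2 libraries. Ccl2, the main monocyte attractant, was at 0.0230, 0.142 and 0.251 RPKM in nTg, 0.202, 0.444 and 0.142 RPKM in MFN2-R94Q and 0.172, 0.396, 0.340, 0.407 and 0.363 RPKM in MFN2-R94Q:MFN1, and all groups overlapped.

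A limma voom test on the recovered reads, chosen after the data were seen, included 118 members, 57 of them under the filter on RPKM. It called 12, 13 and 9 members in MFN2-R94Q against nTg, in MFN2-R94Q:MFN1 against MFN2-R94Q and in MFN2-R94Q:MFN1 against nTg, beside 13.3%, 9.7% and 2.31% of all genes it tested. The members under the filter that it called were Il1rn, Il1rl2 and Il20rb, which are named here after their values were seen. Il1rn, the antagonist that blocks the IL-1 receptor, had 2, 0 and 2 reads in nTg, 1, 0 and 4 in MFN2-R94Q and 7, 14, 8, 9 and 8 in MFN2-R94Q:MFN1. All 5 libraries of the last group exceeded all others. Il1rn passed the minimum of 10 reads in all only through that group, where it was high, so its test carries little weight. Its fitted fold was 6.15 against nTg (log2 2.62, SE 0.64, adjusted p = 0.0408) and 5.39 against MFN2-R94Q (log2 2.43, adjusted p = 0.0244), and with so few reads it is imprecise. The call against nTg was lost without any nTg library or without MFN2-R94Q:MFN1 replicate 2, 3, 4 or 5 (adjusted p up to 0.212). That against MFN2-R94Q did not pass without replicate 2 of MFN2-R94Q (adjusted p = 0.153).

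Il1rl2, the IL-36 receptor, had 14, 11 and 5 reads in nTg, 10, 17 and 15 in MFN2-R94Q and 19, 41, 20, 19 and 24 in MFN2-R94Q:MFN1. It was 2.29-fold higher in the last group than in nTg (adjusted p = 0.028), a call lost without any nTg library or without MFN2-R94Q:MFN1 replicate 2, 3 or 4 (adjusted p up to 0.115). Il20rb, a chain of the IL-20 family receptors, had 7, 6 and 13 reads in nTg and 11, 21 and 33 in MFN2-R94Q, and was 2.74-fold higher there (adjusted p = 0.0174). This call was lost without replicate 1 or 2 of nTg or replicate 3 of MFN2-R94Q (adjusted p up to 0.103). Tnfsf11, the osteoclast factor RANKL and likewise chosen after its values were seen, had 2, 48 and 16 reads in MFN2-R94Q and 1 to 5 in each other library. Its fold of 5.20 in MFN2-R94Q against nTg did not pass (adjusted p = 0.085), and MFN2-R94Q replicate 2 held most of its reads.

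**Figure D5:**
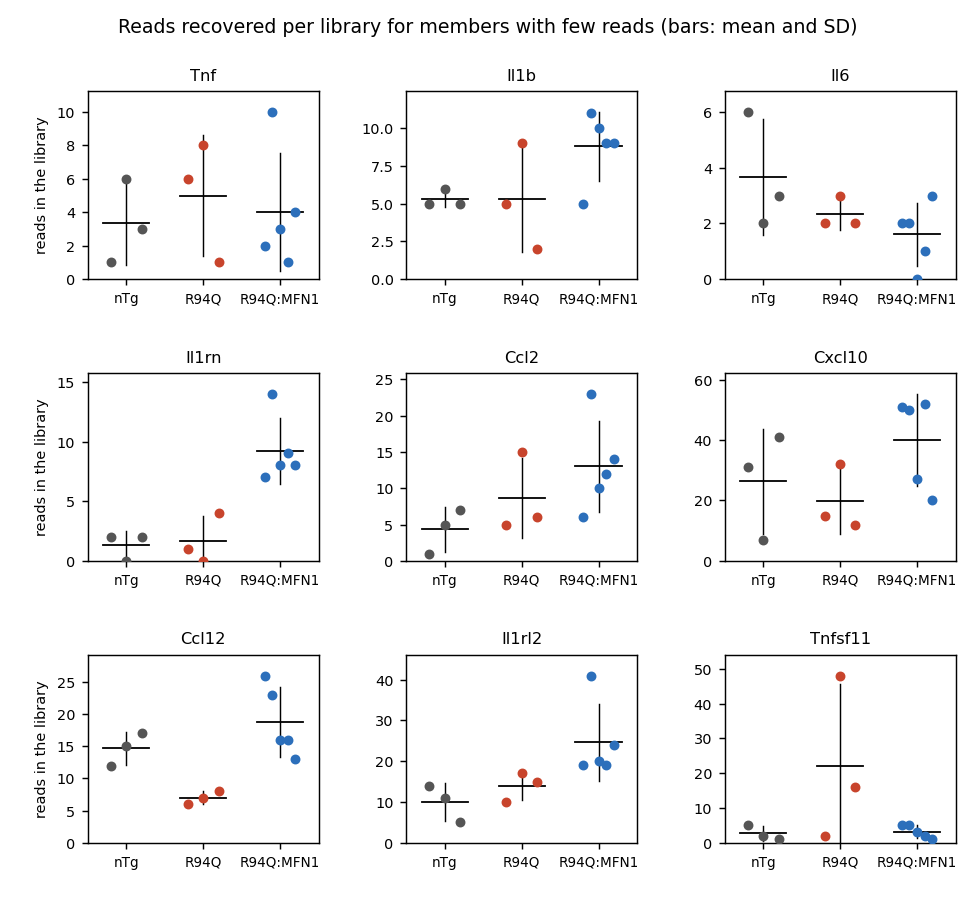
Reads recovered per library (y axis, not scaled to depth, which ranged from 30.7 to 72.0 M reads) in nTg (3), MFN2-R94Q (3) and MFN2-R94Q:MFN1 (5) for 9 members with few reads; points are libraries, with the mean and SD as bars. The Il1rn points of MFN2-R94Q:MFN1 (7 to 14 reads) lie above all others (0 to 4 reads), Tnf and Il1b overlap between groups, and 1 MFN2-R94Q library holds 48 reads of Tnfsf11.

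Genes outside the name patterns but in the same pathways were counted in lists drawn up by pathway. The shares of all genes called in the 3 comparisons were 17.9%, 12.9% and 2.31%, and 11.3%, 6.16% and 4.11% without MFN2-R94Q replicate 2. Of 33 tested chemokine and cytokine genes of other names, 4 were higher and 3 lower in MFN2-R94Q than in nTg, 11 were higher and 0 lower in MFN2-R94Q:MFN1 than in MFN2-R94Q, and 8 were higher and 0 lower in MFN2-R94Q:MFN1 than in nTg. The 11 fell to 6 without MFN2-R94Q replicate 2. In that fit, 2 of the 33 were lower in MFN2-R94Q:MFN1 than in nTg. Their median log2 fold changes were -0.01, 0.15 and 0.12, beside 0.00, 0.01 and 0.01 over all genes. Csf1r, the receptor for Il34 that microglia depend on, and Cx3cr1 are in this list and among the microglia markers. The level of Csf1r was 22.2 ± 1.16 RPKM (SD) in the 3 nTg libraries, 22.8 ± 1.78 RPKM in the 3 of MFN2-R94Q and 28.8 ± 1.23 RPKM in the 5 of MFN2-R94Q:MFN1. It was 1.29-fold higher in MFN2-R94Q:MFN1 than in nTg (adjusted p = 0.0017), and this held in every fit that left out a library. Osmr, which pairs with Il6st to bind oncostatin M, was 1.53-fold higher in MFN2-R94Q than in nTg (adjusted p = 0.0046) and 1.43-fold higher in MFN2-R94Q:MFN1 than in nTg (adjusted p = 0.014). The second call was lost without nTg replicate 2 or 3 (adjusted p up to 0.0891). Cx3cl1, the neuronal chemokine read by microglia, was at 69.6 ± 1.35, 57.6 ± 4.38 and 63.6 ± 1.94 RPKM in the 3 groups and was 0.828 times the nTg level in MFN2-R94Q (adjusted p = 0.0043).

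Of 57 tested genes of Toll-like receptor and NF-κB signalling, 2 were higher and 5 lower in MFN2-R94Q than in nTg, 10 higher and 2 lower in MFN2-R94Q:MFN1 than in MFN2-R94Q, and 3 higher and 0 lower in MFN2-R94Q:MFN1 than in nTg. These counts stand beside the shares of all genes given above for the 3 comparisons (17.9%, 12.9% and 2.31%). Without MFN2-R94Q replicate 2 these counts were 1 and 2, then 5 and 0, then 5 and 0. Unc93b1, which carries Tlr7 and Tlr9 to the endosome, was at 6.78 ± 0.441, 6.60 ± 0.325 and 9.26 ± 0.343 RPKM and was 1.34-fold higher in MFN2-R94Q:MFN1 than in nTg (adjusted p = 0.00035). Irf8, a myeloid transcription factor, was at 1.19 ± 0.130, 1.28 ± 0.143 and 2.05 ± 0.209 RPKM, 1.50-fold higher in the same comparison (adjusted p = 0.0015). Irf7, an interferon-induced factor, was 1.80-fold higher in MFN2-R94Q:MFN1 than in MFN2-R94Q (adjusted p = 0.0036). These calls of Unc93b1, Irf8 and Irf7 held in every fit that left out a library. Cd14, a coreceptor of Tlr2 and Tlr4, was 1.42-fold higher in MFN2-R94Q:MFN1 than in nTg (adjusted p = 0.042), but lost its call without nTg replicate 1 or 3, MFN2-R94Q replicate 3 or any 1 MFN2-R94Q:MFN1 library (adjusted p up to 0.182).

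Of 28 tested JAK-STAT genes, 3 were higher and 1 lower in MFN2-R94Q than in nTg, 3 higher and 2 lower in MFN2-R94Q:MFN1 than in MFN2-R94Q, and 1 higher and 0 lower in MFN2-R94Q:MFN1 than in nTg. Without MFN2-R94Q replicate 2 they were 3 and 0, 2 and 0, and 2 and 0. These counts and those of inflammasome genes below stand beside 17.9%, 12.9% and 2.31% of all genes called. Without that library the shares were 11.3%, 6.16% and 4.11%. Ptpn6, a phosphatase of blood-derived cells and microglia that restrains cytokine receptors, was at 1.76 ± 0.319, 1.49 ± 0.0188 and 2.62 ± 0.236 RPKM. It was 1.39-fold higher in MFN2-R94Q:MFN1 than in nTg (adjusted p = 0.010) and 1.56-fold higher than in MFN2-R94Q (adjusted p = 0.0013), and the first call was lost without nTg replicate 1 (adjusted p = 0.055). Of 8 tested inflammasome genes, 1, 2 and 1 were higher in the 3 comparisons and 0 lower, and the middle count was 0 without MFN2-R94Q replicate 2. Aim2, a sensor of cytosolic DNA, was the gene higher in both comparisons with nTg (1.23-fold, adjusted p = 0.015, and 1.21-fold, adjusted p = 0.043). Its first call was lost without nTg replicate 2 (adjusted p = 0.0611). The second was lost without any nTg library or without MFN2-R94Q:MFN1 replicate 2, 3, 4 or 5 (adjusted p up to 0.21). Pycard and P2rx7 were those higher in MFN2-R94Q:MFN1 than in MFN2-R94Q (1.24-fold and 1.25-fold). Without MFN2-R94Q replicate 2 they were 1.17-fold (adjusted p = 0.166) and 1.14-fold (adjusted p = 0.0889). Both were also lost without MFN2-R94Q:MFN1 replicate 2 or 4, P2rx7 without replicate 5, and Pycard without nTg replicate 1, MFN2-R94Q replicate 1 or MFN2-R94Q:MFN1 replicate 1 or 3.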

How the data were processed

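Expression was measured in 11 lumbar spinal cord libraries prepared from poly(A) RNA with a stranded kit, per the labels' protocols. The authors deposited RPKM values for 20888 gene rows. The processing used TopHat, Partek 7.17.0918 and build mm10, per the submitters' processing notes. For TopHat's version, the annotation, the counting of shared reads and the use of strand, nothing is given in the sources used here; overlapping and near-identical genes are therefore uncertain.

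Values were tested as log2(RPKM + 0.5) with limma 3.58.1 in R 4.3.3 (eBayes with trend), fitting the 11 libraries together on genotype alone, for the 14347 genes that reached 0.5 RPKM in 3 or more libraries. Tests were two-sided with Benjamini-Hochberg adjustment over all of these genes and a threshold of 0.05. Intervals are 95% intervals from limma and errors after RPKM values are SDs. The p-values measure the spread between these libraries.

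The members and gene lists were chosen with earlier results of these data known. Members were named when called in any comparison, when among the 3 highest of their role, or when well-known inflammatory genes; from other lists up to 4 genes with the smallest p per comparison were named. Of these, 1 member is not reported here and not drawn.

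Depth was recovered from short RNA genes, whose low values are whole multiples of 1 read (94.0% to 97.9% of them came within 0.02 of one). Gene lengths were then found so that values became whole reads, for 12828 genes (68.6% of the 18698 with a value in at least 6 libraries) and 124 members (78.0% of 159). Of these 124 lengths, 65 lay within 2% of a GENCODE M21 transcript. The length taken was the smallest found to make the values whole, and a multiple of the true length does so too. Reads of some genes may therefore be multiplied, as may be so for Tnfrsf21, given a length of 14504 bases. Both steps and the fit were tested on simulated data. Promoter windows were matched by symbol for 141 members (RefSeq, GRCm38.p6). Alternatives covered the pseudocount, filter, scaling, groups in the fit, library weights, variance trend, each library left out and, added after the data were seen, limma voom on reads of genes with at least 10 reads in all.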

Additional observations from a re-analysis of the deposited data

Results flagged for a closer look

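For 51 named members, each library of the MFN2-R94Q:MFN1 group (the only group with more than 3 libraries) was compared with the rest of its group. In 2 of them a library lay far from the others by Dixon's criterion, which chance alone meets in about 1 in 20 groups. Ccl2 was at 0.172 RPKM in MFN2-R94Q:MFN1 replicate 1, against 0.340 to 0.407 RPKM in the other 4 libraries of the group. These values rest on few reads, 6 in replicate 1 and 10 to 23 in the other 4. Tnfrsf18 was at 2.04 RPKM in MFN2-R94Q:MFN1 replicate 3, against 1.47 to 1.62 RPKM in the other 4. In that library the sum of 8 meningeal fibroblast markers was 26.6 RPKM, against 19.8 to 21.4 RPKM in all other libraries. The sum of 6 Schwann cell and root markers was 129.8 RPKM, against 63.3 to 121.9 RPKM. The mean log2 difference of these 6 markers from nTg was 1.11 in that library, against -0.11 to 0.147 in all others. The part of either marker set in the level of Tnfrsf18 was not tested.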

How the results depend on the processing

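Of 42 calls of members, 15 held under every alternative that tested them, 17 held in every fit that left out a library and 0 reversed. Counts that moved by more than 1.5 times follow, with the cause not tested. In MFN2-R94Q against nTg, 9 higher members became 3 with the groups compared fitted alone and 17 with library weights, and 4 lower became 1 and 9 (1 to 9 with a library left out). With the groups alone, 1.83% of all genes were higher and 4.06% lower. With library weights, 11.6% were higher and 14% lower. In MFN2-R94Q:MFN1 against MFN2-R94Q, 19 higher became 11 without a filter, under quantile normalization or with voom on recovered reads, a test chosen after seeing the data (6 to 16 with a library left out); 2 lower became 0 without a filter, with a filter at 1 RPKM or with the groups alone, and 4 under quantile normalization or weights (0 to 4 with a library left out). Of all genes, 4.29% were higher without a filter, 7% under quantile normalization and 6.75% with voom. In MFN2-R94Q:MFN1 against nTg, 8 higher ranged from 5 to 10 with a library left out. Over all genes the 2561 calls of the first comparison became 844 with the groups alone and 1681 with voom (1213 to 2857 with a library left out). The 1848 of the second became 1198 without a filter, 3378 with weights and 1229 with voom (882 to 2217). The 332 of the third became 565 with the groups alone and 590 with weights (189 to 589). Quantile normalization split the calls over all genes into 1267 higher and 1278 lower, 1004 and 833, and 213 and 44, against 1076 and 1485, 1370 and 478, and 300 and 32. The estimate of library weights stopped before it converged. No paired analysis was possible because the labels give no replicate numbers or pairing. Depth limits members with a few reads per library, such as Tnf, Il6 and Il10.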
